A study of Rattus norvegicus with 9 samples.

Results

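The ureteric bud (UB) of the rat was compared with the Wolffian duct isolated with its attached mesodermal cells (WD+IM), both from Sprague-Dawley embryos at embryonic day 13. The comparison rests on 6 of the series' 9 arrays, 3 of UB and 3 of WD+IM, and its genes are named through the 20826 of 31099 probe sets that carry 1 gene symbol, which stand for 14217 genes. The other 3 arrays hold the Wolffian duct without mesoderm (WD). They entered the fit through the estimate of the spread, the filter on low signal and the choice of the pseudocount, and their values are given beside the others as a description. Each array measured total RNA pooled from about 100 UBs, from about 100 WDs or from about 50 pieces of WD+IM, and the pools of a tissue are labelled biological replicates. No genotype or culture step is given, since the tissues were dissected directly. UBs were freed from the embryonic kidney by a light trypsin digestion and the ducts were isolated without treatment, so the tissue and its digestion cannot be told apart. All 3 tissues are bulk pools, in which fewer cells of a type and less RNA per cell cannot be told apart, and p-values measure only the spread between these pools.

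The Wolffian duct is an epithelial tube that runs through the intermediate mesoderm. Kidney mesenchyme secretes GDNF, which binds GFRA1 and the receptor kinase RET on the duct and makes a bud grow out, branch and form the collecting system. RET acts through the ETS factors ETV4 and ETV5, and Sprouty proteins and the phosphatase DUSP6 damp the signal. The mesoderm around the duct gives rise to stroma, vessels, coelomic lining, gonad and nephron progenitors, and retinoic acid, Wnt and BMP signals pass between it and the epithelium.

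All arrays had been scaled to a trimmed mean signal of 2501, and median signals were 534 to 626 intensity units on UB, 778 to 862 on WD and 644 to 897 on WD+IM, so all UB medians lay below all WD+IM medians. The number of arrays limits the precision. Arrays of UB correlated with each other at Pearson's r of 0.958 to 0.978, those of WD+IM at 0.939 to 0.955 and arrays of the 2 tissues at 0.827 to 0.880, over 20330 probe sets. A spiked-in control split the arrays in a way the tissues only partly follow. On the UB arrays the bioC control signal was 2.88 to 2.99 times the bioB signal, and 2.93 times on WD+IM replicate 3, while the remaining 5 arrays had 1.02 to 1.24. Dim probe sets followed this split, as the 10th percentile of signal was 26.9 to 35.3 on the 4 arrays with a high ratio and 55.7 to 76.8 on the rest. Results were therefore also fitted with this split as a term and with UB against WD+IM replicate 3 alone among the WD+IM arrays, here called the spike batch term and the fit within the spike batch. The latter leaves out the WD arrays and takes WD+IM replicate 3 to vary like the UB arrays, which alone give its residual spread. Since all UB arrays and no WD array had the high ratio, both fits give the same difference, UB minus WD+IM replicate 3. They differ only in the spread used and are not separate checks. Each call was also repeated under up to 24 alternatives, among them other scalings, filters and models and each array left out in turn.

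The bud and the duct with mesoderm differed in the signal of many genes. Of 20330 probe sets tested by limma, 5176 (25.5%) were called at a Benjamini-Hochberg adjusted p under 0.05, 2228 higher and 2948 lower in UB. The fit and its adjustment run over all of these, with or without a symbol, and of the 15076 with 1 symbol 1791 were higher and 2216 lower. With each gene taken by its brightest probe set, 10800 genes were tested, of which 3267 (30.2%) were called, 1472 (13.6%) rising and 1795 (16.6%) falling in UB. Of the genes tested, 577 (5.34%) rose and 1150 (10.6%) fell by at least 2-fold. Differences are UB minus WD+IM on the scale of log2(signal + 46) with their standard errors, so those of weak genes are understated, and the median over all genes was -0.01. The 3 UB arrays lay wholly above the 3 WD+IM arrays for 24.2% of genes and wholly below for 25.7%, 49.9% in all, so a gap between the arrays is no rarity in this comparison. How the calls divide depends on the scaling. The share of called probe sets that were higher in UB was 43.0%, against 49.4% with quantile normalization and 72.0% with median centring, which moved the median of all probe sets from -0.05 to 0.07 and 0.32. The spike batch term left 2414 probe sets called. All 5176 kept their sign in the difference from WD+IM replicate 3 alone, which both spike batch fits share. The arrays in that difference had also made the calls, so it is not a separate check.

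The genes with the largest rises in UB were led by a homeobox gene. En2, which encodes the transcription factor engrailed 2, gave signals of 41209, 38954 and 36740.0 on the UB arrays and 359, 85.6 and 316 on the WD+IM arrays, a difference of 7.18 ± 0.37 (limma adjusted p = 4.37e-08), or 145-fold. Its arrays did not overlap, and the WD arrays, at 1281, 778 and 1541, lay between those of the other tissues. Cnpy1, a member of the canopy family, had signals of 6744, 5642 and 6424 against 49.4, 55.6 and 42 (6.05 ± 0.49, adjusted p = 1.94e-06), and the chemokine Cxcl14 had 3153, 2138 and 2387 against 71.2, 142 and 92.2 (4.15 ± 0.42, adjusted p = 1.27e-05). For both genes the WD arrays too lay far below every UB array. The others were the potassium channel Kcna2 (5.003 ± 0.51), the GDNF receptor Ret (4.55 ± 0.20), the membrane ubiquitin ligase Marchf11 (3.96 ± 0.22), the actin-severing protein Scin (3.90 ± 0.28), Etv4 (3.83 ± 0.27), the growth cone protein Gap43 (3.80 ± 0.22), the SH2 adaptor Sh2d4a (3.68 ± 0.27), the actin-bundling protein Espn (3.67 ± 0.30) and the calcium-binding protein Calb1 (3.66 ± 0.65). Cnpy1, Kcna2 and Calb1 each had 1 WD+IM array below the pseudocount, so their size and rank depend on it. Cnpy1 ran from 5.17 to 6.60 and Calb1 from 3.06 to 4.03 with the higher and the lower alternative pseudocount. Kcna2 ran from 4.28 to 5.46, and to 3.33 as the mean of its probe sets, and Cxcl14 from 3.54 to 4.47. Among the genes named here, the call was lost over the alternatives for Calb1 (difference 3.06 to 4.03, adjusted p 5.55e-05 to 0.0529, lost under 1 of 24).

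The genes of the bud tip and of RET signalling rose with a single exception among those tested. Of 15 such genes tested, 14 rose and 1 fell, with a median of 2.20 against -0.01 over all genes. Ret gave signals of 47692, 49028 and 38887 on the UB arrays and 1336, 2014 and 2463 on the WD+IM arrays, a rise of 23.4-fold (4.55 ± 0.20, adjusted p = 1.34e-08). On the WD arrays Ret stood at 7387, 6340.0 and 8168, above every WD+IM array and below every UB array. Its co-receptor Gfra1 gave 26862, 24266 and 23807 against 2508, 4338 and 2919.9 (2.96 ± 0.18, adjusted p = 1.99e-07), again with no overlap. Wnt11, a secreted Wnt protein of bud tips, gave 4383, 2629 and 4665 against 212, 509.9 and 614 (3.07 ± 0.41, adjusted p = 0.000131). Here the order of the ducts was turned, as WD stood at 17.4, 25.3 and 33, below every WD+IM array. The ETS factors Etv4 and Etv5 gave 15498, 16266 and 14033 against 1659, 859.7 and 754 and 9384, 8544 and 9104 against 1269.8, 1222 and 933, rises of 3.83 ± 0.27 and 2.94 ± 0.27. The chemokine receptor Cxcr4 rose by 3.23 ± 0.24. The feedback inhibitors Spry1, Spry2, Spry4 and Dusp6 all rose, by 2.18 ± 0.18, 1.79 ± 0.35, 1.31 ± 0.21 and 1.33 ± 0.25. These 4 were named after their values were seen. The member that fell was Moxd1, a monooxygenase-like protein, at 440.4, 448 and 380.3 against 5268, 5408 and 6268 (-3.60 ± 0.23, adjusted p = 2.71e-07). Summed over the members, the signal was 222815 to 252114 on UB and 52945 to 55688 on WD+IM, and the WD arrays, at 56383 to 62440.1, lay close to WD+IM. Of the list, 12 rose with the spike batch term and 13 without UB replicate 3. Where another tested probe set of a gene was not called, the mean over its probe sets gave 1.73 for Etv5 (adjusted p = 9.3e-05). Some alternatives ended the call of 1 gene named here, Spry2 (difference 0.92 to 2.23, adjusted p 0.000273 to 0.157, lost under 1 of 24).

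**Figure D1:**
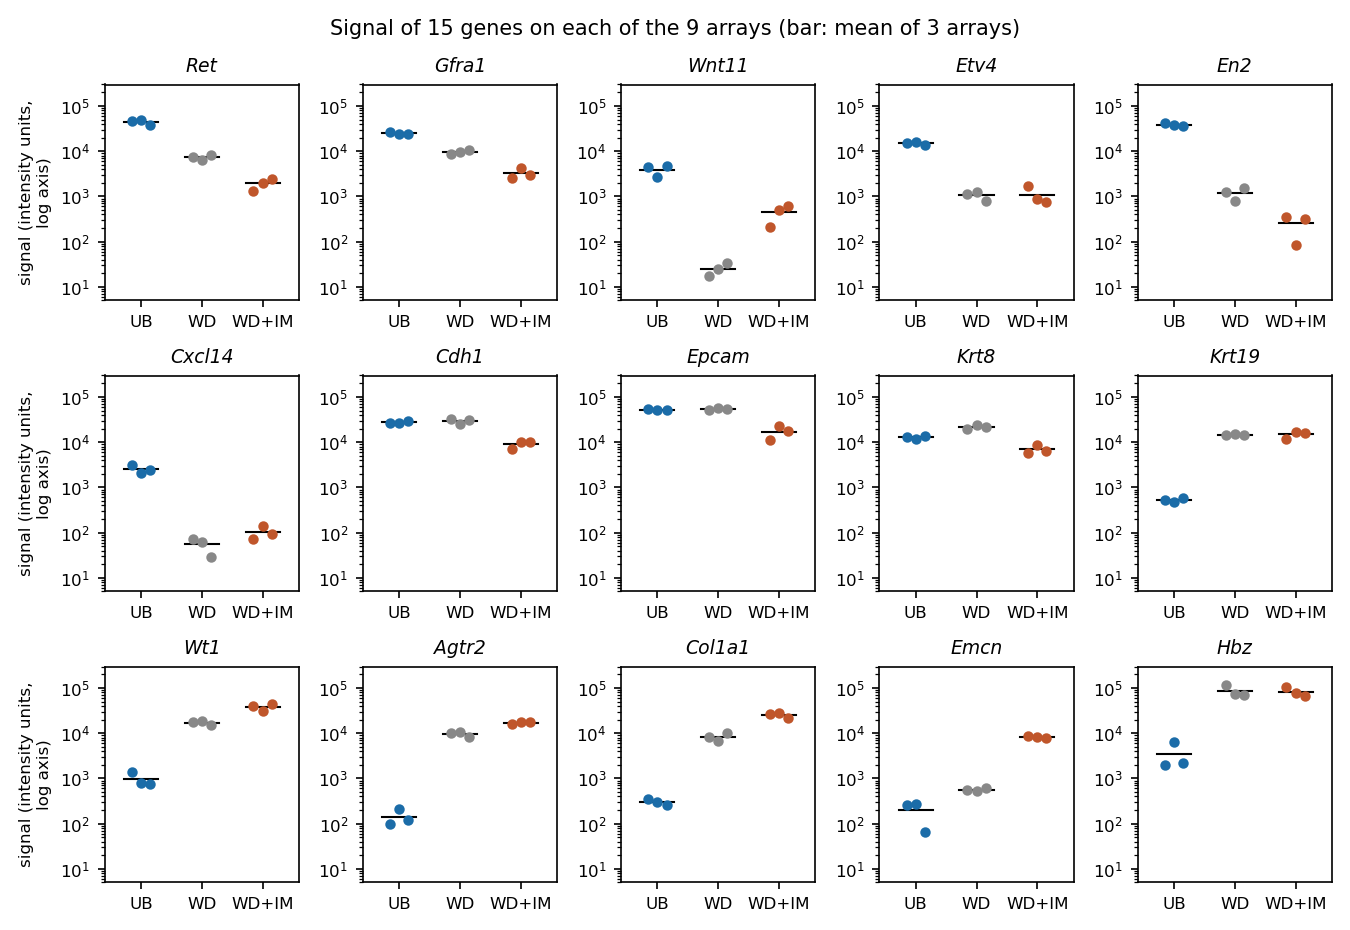
Signal of 15 genes in intensity units on a log axis, with 1 point for each of the 9 arrays and a bar at the mean of the 3 arrays of UB, WD and WD+IM. Ret, Gfra1, Wnt11, Etv4, En2 and Cxcl14 are higher on all UB arrays than on all WD+IM arrays, Cdh1, Epcam and Krt8 less so, and Krt19, Wt1, Agtr2, Col1a1, Emcn and Hbz are lower.

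General epithelial genes were higher in UB as well, by less. Of 28 genes of epithelial adhesion and polarity, 25 rose and 1 fell, with a median of 1.69. Cdh1, the epithelial cadherin, gave signals of 26007, 26887 and 29825 on the UB arrays and 7067, 10352 and 10154 on the WD+IM arrays (1.60 ± 0.16, adjusted p = 1.06e-05). Epcam, an epithelial adhesion molecule, gave 55012, 51114 and 51874 against 11199.7, 22771 and 17906 (1.66 ± 0.20, adjusted p = 5.5e-05). For both genes the WD arrays, at 31968, 25714 and 30741 and 52412, 56365 and 55462, were as high as UB, and the same list in WD minus WD+IM, which shares the WD+IM arrays and was not tested here, had a median of 1.63. The members with the smallest p were the claudins Cldn3 (2.75 ± 0.17) and Cldn6 (2.20 ± 0.15), the tight junction protein Ocln (1.81 ± 0.13), the desmosome protein Perp (2.90 ± 0.21) and the epithelial splicing factor Esrp1 (1.91 ± 0.15). Cldn3 rose from 1192, 1036 and 1025 on the WD+IM arrays to 7748, 6698 and 8348 on the UB arrays. The member that fell was the junction protein plakoglobin, Jup, at 4386, 4103 and 4731 against 8153, 9425 and 8549 (-0.98 ± 0.21, adjusted p = 0.00405). The call of a named gene that was not kept under all alternatives was that of Jup (difference -1.03 to -0.61, adjusted p 0.000238 to 0.0778, lost under 2 of 24).

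Most of the epithelial genes that could be looked up hold a short sequence before their start sites. The motif is CAGGTG, or CACCTG on the opposite strand, an E-box that repressors of the Snail and ZEB families are known to bind in epithelial promoters. In the RefSeq promoter table of build GRCr8, 17 of the 18 members with an entry (94.4%), among the 28 tested, held it at least once in the 250 bases before the gene's start. The share was 15.9% over all 33469 promoters of the table and 14.4% over the 8434 genes tested that have an entry. It was 19.7% among genes called higher in UB, 12.5% among those called lower and 13.9% among those not called. Other small lists differed widely. The motif was held by 2 of 3 keratins, 5 of 9 duct lineage transcription factors and 0 of 13 endothelial genes with an entry. It was also held by 5 of 9 genes of coelomic epithelium and mesothelium (55.6%), a list in which 9 of 13 tested fell. Shown are 4 members that hold it and the 1 that does not, 5′ to 3′ on the gene's strand, with each match in capitals.
Cldn7 (chr10:55188420-55188669, plus strand): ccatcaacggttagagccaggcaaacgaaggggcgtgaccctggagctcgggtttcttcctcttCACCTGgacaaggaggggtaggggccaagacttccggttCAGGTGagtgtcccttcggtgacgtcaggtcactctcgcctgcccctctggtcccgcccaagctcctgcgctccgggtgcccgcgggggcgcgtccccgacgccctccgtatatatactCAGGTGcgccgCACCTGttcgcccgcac
Crb3 (chr9:1987504-1987753, plus strand): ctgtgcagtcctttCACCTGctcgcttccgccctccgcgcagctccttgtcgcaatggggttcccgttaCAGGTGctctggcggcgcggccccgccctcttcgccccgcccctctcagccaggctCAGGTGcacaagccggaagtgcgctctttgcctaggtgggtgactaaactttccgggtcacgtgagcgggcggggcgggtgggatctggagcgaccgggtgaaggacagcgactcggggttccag
Cldn6 (chr10:13215558-13215807, plus strand): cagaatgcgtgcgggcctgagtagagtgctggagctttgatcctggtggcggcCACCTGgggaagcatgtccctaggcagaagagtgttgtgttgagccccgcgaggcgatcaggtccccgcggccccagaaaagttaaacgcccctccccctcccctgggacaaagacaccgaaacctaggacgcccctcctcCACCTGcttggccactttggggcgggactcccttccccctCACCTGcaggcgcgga
Epcam (chr6:12649679-12649928, minus strand): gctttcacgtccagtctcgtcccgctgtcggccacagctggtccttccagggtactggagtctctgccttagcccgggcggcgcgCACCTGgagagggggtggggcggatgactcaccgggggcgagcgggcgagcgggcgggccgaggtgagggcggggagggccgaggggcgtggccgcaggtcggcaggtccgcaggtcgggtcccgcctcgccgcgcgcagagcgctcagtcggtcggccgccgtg
Cldn8 (chr11:41364331-41364580, minus strand): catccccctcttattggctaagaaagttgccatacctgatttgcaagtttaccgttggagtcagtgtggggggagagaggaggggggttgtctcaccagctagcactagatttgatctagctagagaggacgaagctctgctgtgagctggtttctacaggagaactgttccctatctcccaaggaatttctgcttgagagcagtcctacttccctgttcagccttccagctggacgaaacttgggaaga

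The claudins Cldn7 and Cldn6, the polarity protein Crb3 and Epcam hold 4, 3, 3 and 1 matches, and Cldn8 holds 0. Their signals in UB against WD+IM were 7307, 2627 and 8662 against 3704, 1546 and 1029 for Cldn7 (1.58 ± 0.47), 9682, 9125 and 6487 against 1354, 2134 and 2610.1 for Crb3 (2.06 ± 0.23) and 20581, 21480.0 and 28694 against 4717, 4839.6 and 5573 for Cldn6 (2.20 ± 0.15). Cldn8, without a match, gave 22137, 19549 and 22599.9 against 7568, 10410.4 and 15584 (0.99 ± 0.23, adjusted p = 0.00638). Jup, the member that fell, also holds 1 match. The motif was therefore present beside rises of different size and beside a fall, and absent beside a rise, and a match is only a run of letters, not a bound site. Of these repressors, 3 were seen to be lower in UB, with differences for Zeb1 of -3.27 ± 0.17, for Zeb2 of -2.68 ± 0.44 and for Snai1 of -2.74 ± 0.23. Cldn7, Crb3, Cldn8 and these 3 genes were named after their values were seen, and any link between the motif and the signals was not tested. Not every alternative kept the calls of the named genes Cldn7 (difference 1.18 to 2.37, adjusted p 0.00111 to 0.102, lost under 7 of 24) and Cldn8 (difference 0.46 to 1.36, adjusted p 0.000735 to 0.316, lost under 2 of 24).

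Transcription factors of the duct lineage were mostly higher in UB. Of 15 tested, 10 rose and 1 fell, with a median of 0.90. Pax2, which the whole nephric lineage expresses, gave signals of 9404, 14525 and 8689 on the UB arrays and 2398, 2585 and 2284 on the WD+IM arrays (2.11 ± 0.21, adjusted p = 1.11e-05), and Lhx1 gave 12403, 10482 and 15694 against 1853, 2281 and 1508 (2.74 ± 0.22, adjusted p = 1.64e-06). Pax2 on WD, at 7164, 8126 and 11140.1, overlapped UB, whereas Lhx1 on WD, at 3755, 5405 and 3411, lay between the other tissues. Tfap2a, an AP-2 factor, the bHLH-PAS factor Sim1 and the zinc finger factor Sall4 rose by 2.75 ± 0.20, 2.69 ± 0.24 and 2.57 ± 0.23. Pax8, Gata3 and Emx2 rose by less, 0.74 ± 0.16, 0.90 ± 0.30 and 0.58 ± 0.20, and their arrays lay above WD+IM with smaller gaps. Grhl3, a grainyhead factor of surface epithelia, fell (147, 285 and 19.1 against 1085, 1531 and 1533, -3.13 ± 0.57, adjusted p = 0.00149), and 1 UB array of it was below the pseudocount. On the WD arrays Pax8 stood at 10125, 10764 and 10005 and Emx2 at 29335, 39345 and 22305, Pax8 above every UB array, and the list's median of WD minus WD+IM, which shares the WD+IM arrays and was not tested, was 1.47. Of the 15, 6 rose with the spike batch term. With arrays below the pseudocount, the size depends on it, and with the higher and the lower alternative it ran for Grhl3 from -2.55 to -3.53 (1 of 6 arrays). The mean over all probe sets of a gene, where another tested one was not called, was 0.66 for Pax8 (adjusted p = 0.121) and 0.81 for Gata3 (adjusted p = 0.00129). Of the genes named here, at least 1 alternative ended the calls of Pax8 (difference 0.55 to 1.11, adjusted p 0.00102 to 0.121, lost under 3 of 24), Gata3 (difference 0.56 to 1.26, adjusted p 0.00129 to 0.52, lost under 11 of 24), Emx2 (difference 0.30 to 0.94, adjusted p 0.00883 to 0.585, lost under 12 of 24) and Grhl3 (difference -3.65 to -2.48, adjusted p 0.000178 to 0.0594, lost under 1 of 23).

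Keratins did not move together. Of 7 tested, 2 rose and 2 fell, and Krt5, Krt7 and Krt17 were not called. Without WD+IM replicate 3, 4 fell, and within the spike batch 1. Krt8 and Krt18, the keratin pair of simple epithelia, rose from 5746, 8608 and 6441 to 13001, 11896 and 13481 (0.90 ± 0.16) and from 8257, 12991 and 11665 to 21783, 18749 and 22414 (0.95 ± 0.17). Krt19, a keratin of ducts and mesothelium, went the opposite way, with 538, 464 and 570.3 on the UB arrays and 12042, 16738 and 16012 on the WD+IM arrays (-4.70 ± 0.16, adjusted p = 3.08e-09). Its WD arrays, at 14807, 14889 and 14251, were as high as those with mesoderm. Krt15 also fell, at -2.35 ± 0.39, and Krt7 differed by -0.41 ± 0.20, adjusted p = 0.156. Most genes of the bud trunk and urothelium, among them Shh, Aqp2, Aqp3 and 4 uroplakins, were below the filter on low signal and Wnt7b and Wnt9b had no probe set with 1 symbol. Of the 2 tested, 0 rose (limma; 0 at an unadjusted p under 0.05), Gata2 fell (1807, 1955 and 1626 against 8044, 14341 and 11805, -2.60 ± 0.20, adjusted p = 1.13e-06) and the secreted chaperone Clu was not called (0.12 ± 0.24). The named gene whose call some alternatives ended was Krt15 (difference -2.64 to -1.83, adjusted p 0.000181 to 0.0806, lost under 1 of 23).

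Mesenchymal genes fell in UB, all but 1 of them. Of 38 tested genes of mesenchyme and interstitial matrix, 37 fell and 1 rose, with a median of -3.27, and within the spike batch 35 fell. Col1a1, a chain of collagen I, gave signals of 352, 297 and 263 on the UB arrays and 26809.8, 27996 and 22267 on the WD+IM arrays (-6.20 ± 0.19, adjusted p = 2.72e-09). WD lay between, at 8246, 6673 and 10370.5. Col3a1 gave 2290.2, 2912 and 1553 against 91802, 101033 and 78528 (-5.34 ± 0.21, adjusted p = 5.41e-09), and the proteoglycan Dcn gave 356, 349.8 and 343 against 11676, 21389.5 and 17533 (-5.37 ± 0.21, adjusted p = 5.41e-09), with WD at 15634, 11452 and 13388. For Dcn the WD and WD+IM arrays overlapped. Col5a2 and the matrix protein Postn differed by -4.94 ± 0.19 and -5.10 ± 0.20. The exception was Fbln2, a fibulin that also lies in basement membranes, at 7767, 7372 and 6596 against 3748, 5215 and 4456 (0.70 ± 0.17, adjusted p = 0.00769). Summed over the list, the signal was 71272 to 75168 on UB and 506362 to 567275 on WD+IM, and 251088 to 302919 on the WD arrays, so the duct dissected alone carried mesenchymal transcripts too. Their part in the differences of other genes was not tested. Among the genes named here, the call was lost over the alternatives for Fbln2 (difference 0.58 to 1.06, adjusted p 0.00201 to 0.1, lost under 1 of 24).

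Transcription factors of stroma and mesoderm fell without a counterexample among those called. Of 19, 14 fell and 0 rose (limma; 0 at an unadjusted p under 0.05), with a median of -2.13. Meis1, a TALE homeobox factor, gave 3114, 3294 and 1968 on the UB arrays and 51059, 48266 and 46527 on the WD+IM arrays (-4.13 ± 0.18, adjusted p = 9.76e-09), and the homeobox factor Alx1 gave 429, 419 and 339 against 9839, 13753 and 13586 (-4.81 ± 0.18, adjusted p = 5.14e-09). Hic1, Meis2 and the nuclear receptor Nr2f2 differed by -4.30 ± 0.23, -3.21 ± 0.19 and -2.53 ± 0.19. With the spike batch term 12 of the 19 fell. Of 13 genes of coelomic epithelium and mesothelium, 9 fell and 2 rose, against 7 falling with the spike batch term and 6 under median centring. Wt1, a zinc finger factor of coelomic lining and nephron progenitors, gave 1395, 796 and 740.1 on the UB arrays and 39262, 31569.7 and 45192 on the WD+IM arrays (-5.28 ± 0.22, adjusted p = 8.29e-09), with WD at 17980.3, 18378 and 15442. The basonuclin Bnc2 and the zinc finger factor Osr2 differed by -5.72 ± 0.20 and -5.68 ± 0.25, and the retinoic acid synthase Aldh1a2 by -4.10 ± 0.20. The 2 that rose were the related synthase Aldh1a1, at 68938, 71527 and 60317 against 11656, 17708 and 16188 (2.16 ± 0.16, adjusted p = 1.15e-06), and the peptidase Cpe (0.65 ± 0.14). On the WD arrays they stood at 50121, 65359 and 52631 and 30015, 33661 and 32905. Some alternatives ended the call of 1 gene named here, Cpe (difference 0.49 to 1.01, adjusted p 0.000817 to 0.132, lost under 1 of 24).

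Agtr2 led the largest falls. This angiotensin II type 2 receptor gave signals of 97.7, 214 and 118 on the UB arrays and 16256, 17588 and 17682 on the WD+IM arrays (-6.55 ± 0.21, adjusted p = 2.72e-09). Igfbp3, which binds insulin-like growth factors, gave 1064, 883 and 1309.8 against 88279, 107378 and 66096 (-6.26 ± 0.24, adjusted p = 5.14e-09). In both the WD arrays, at 10204, 10577 and 8379 and 52624, 37502 and 70897, stood far above every UB array. The basonuclin Bnc1 gave 23.7, 8.44 and 117 against 6566, 6128 and 7433 (-6.31 ± 0.34, adjusted p = 5.97e-08), with 2 UB arrays below the pseudocount, and ran from -5.31 to -7.05 with the higher and the lower alternative pseudocount. Prss35, a member of the serine protease family (-5.81 ± 0.41), was below the pseudocount on all 3 UB arrays and ran from -4.82 to -6.48. The others were the cytochrome P450 Cyp1b1 (-5.71 ± 0.22), the selenium carrier Selenop (-5.70 ± 0.24), the kappa opioid receptor Oprk1 (-5.69 ± 0.25), the procollagen processing enhancer Pcolce (-5.69 ± 0.21) and the kinase Nrk (-5.67 ± 0.27), besides Col1a1, Bnc2 and Osr2. Oprk1 gave 154, 179 and 98.3 against 8104, 10748 and 10154 and 1233, 844 and 1249 on WD.

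**Figure D2:**
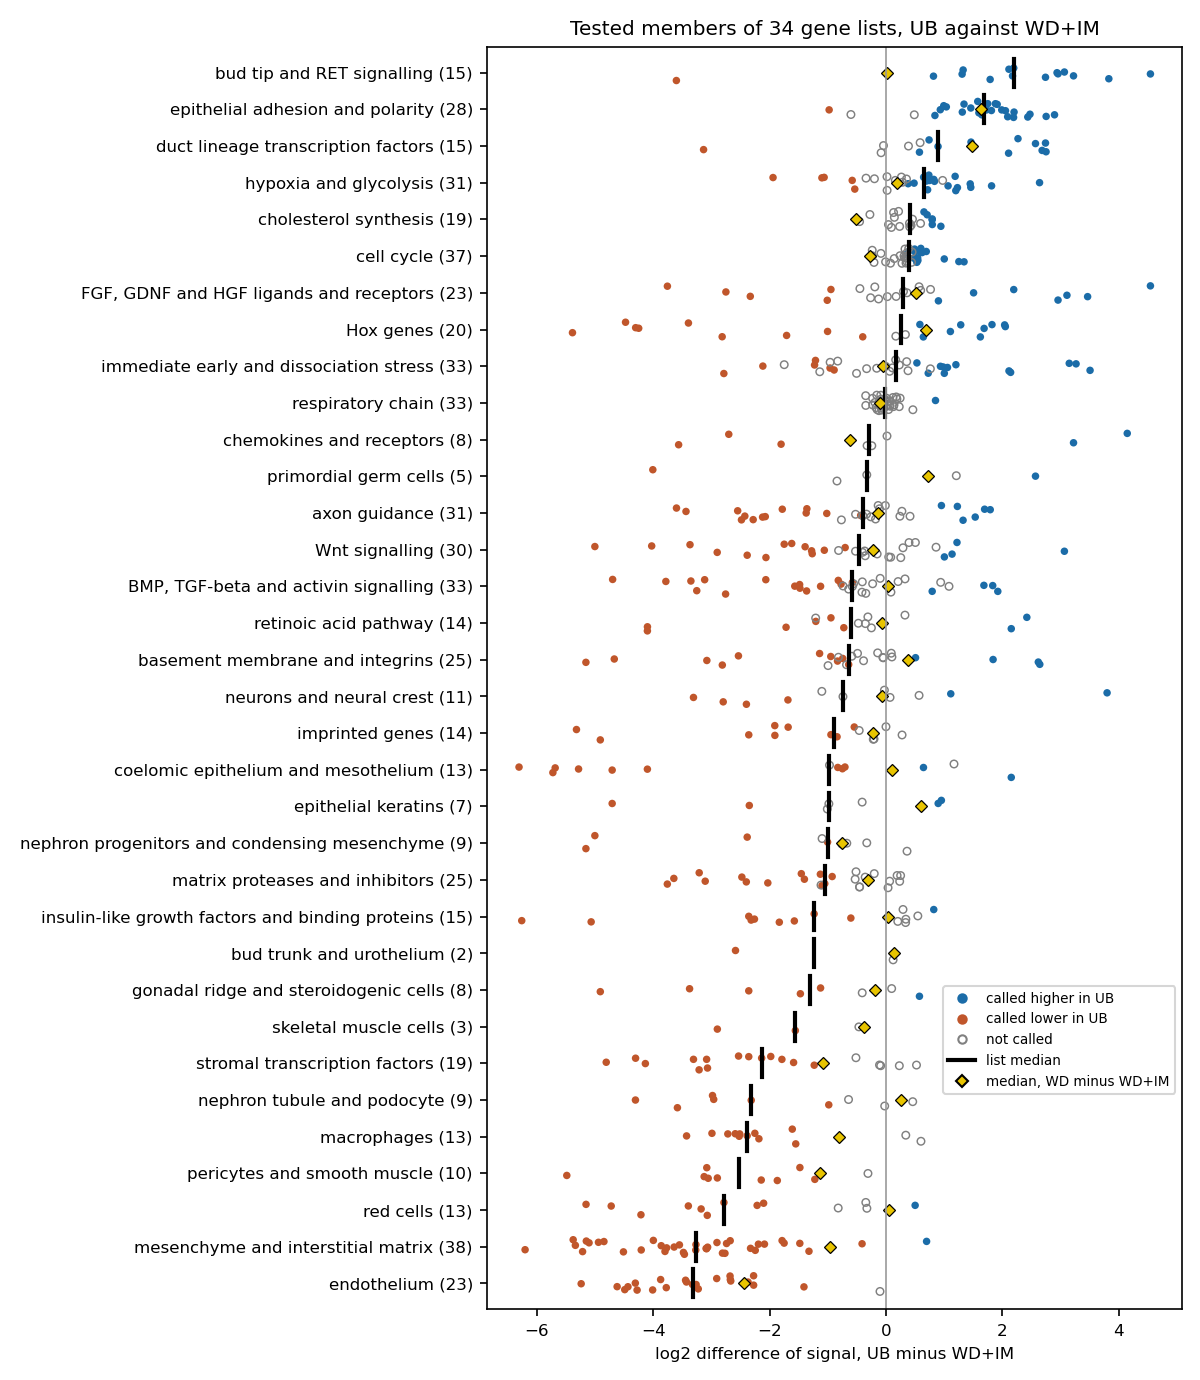
Log2 difference of signal, UB minus WD+IM, for each tested member of 34 gene lists, ordered by the list's median (black bar), with filled points called and open points not called, and the number tested in brackets. The yellow diamond is the median of WD minus WD+IM, which was not tested. Bud tip genes sit highest at a median of 2.20, with their WD diamond near 0, and endothelial and mesenchymal genes lowest at -3.32 and -3.27.

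Genes of endothelium were low in UB. Of 23, 22 fell and 0 rose (limma; 0 at an unadjusted p under 0.05), with a median of -3.32. A gene of any list could pass the filter through the WD+IM arrays alone, so a fall was favoured for genes faint in UB. With a stricter filter at each array's 60th percentile, 15 were tested and 15 fell. The WD+IM arrays alone could pass this filter too, so it does not remove that preference. Emcn, an endothelial sialomucin, gave 262, 269 and 64.1 on the UB arrays and 8514, 8219.9 and 8039 on the WD+IM arrays (-5.24 ± 0.35, adjusted p = 4.55e-07). The WD arrays also lay far below WD+IM, at 542, 523 and 622, and the list's median of WD minus WD+IM was -2.44. Pecam1, an adhesion molecule of endothelium, gave 10, 109 and 21.1 against 1875, 1762 and 1173 (-4.28 ± 0.59, adjusted p = 0.000162), with 2 UB arrays below the pseudocount, and ran from -3.33 to -5.01 with the higher and the lower alternative pseudocount. The VEGF receptor Kdr, the apelin receptor Aplnr, the hyaluronan receptor Lyve1 and Ramp2 differed by -3.77 ± 0.28, -4.43 ± 0.34, -4.62 ± 0.32 and -2.67 ± 0.16. The summed signal of the list was 8531 to 10373 on UB and 79841 to 85922 on WD+IM. Of 10 genes of pericytes and smooth muscle, 9 fell and 0 rose (limma; 0 at an unadjusted p under 0.05), with a median of -2.52 and a summed signal of 5786 to 6616 on UB and 31172 to 38623 on WD+IM. With the stricter filter, which has the same limit, 7 of these were tested and 7 fell. Tagln, an actin-binding protein of smooth muscle, gave 100.3, 154 and 25.9 against 5625, 5679 and 5761 (-5.48 ± 0.36, adjusted p = 3.11e-07), and Mylk, Des, Mcam and Acta2 differed by -3.05 ± 0.20, -2.90 ± 0.22, -3.08 ± 0.33 and -1.87 ± 0.24. The size also depended on the pseudocount where arrays lay below it, running with the higher and the lower alternative for Tagln from -4.76 to -5.92 (1 of 6 arrays).

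Red cell transcripts were abundant in both tissues and lower in UB. Of 13 genes, 9 fell and 1 rose, with a median of -2.78. Hbz, an embryonic alpha-like globin, gave 2011, 6450.0 and 2149 on the UB arrays and 104330.0, 78043 and 65937 on the WD+IM arrays (-4.72 ± 0.37, adjusted p = 1.33e-06), and UB replicate 2 was the highest of the UB arrays for it and for Hbg1 (2846, 7164 and 2018 against 79913, 60724 and 56060.5, -4.21 ± 0.38). On the WD arrays Hbz stood at 114581, 73606 and 70972, level with WD+IM. Hbe1 and Hbb differed by -3.18 ± 0.35 and -3.39 ± 0.41, and the globin chaperone Ahsp by -5.15 ± 0.38. Globin genes are alike in sequence, and their probe sets may share signal. The gene that rose was the transferrin receptor Tfrc (17713, 17928 and 17726 against 13051, 14101 and 10713, 0.50 ± 0.15, adjusted p = 0.0295), which dividing cells also carry. The summed red cell signal was 30299.5 to 58575 on UB and 230695 to 331829 on WD+IM, so red cell RNA was measured on all 6 arrays at unequal levels, and its part in other differences was not tested. Of 13 macrophage genes, 11 fell and 0 rose (limma; 0 at an unadjusted p under 0.05), with a median of -2.38 and a summed signal of 2578 to 3577 on UB and 8898 to 13367 on WD+IM. Genes of either list that were faint in UB could pass the filter through the WD+IM arrays alone, which favours a fall. With the stricter filter at each array's 60th percentile, 7 red cell genes and 0 macrophage genes were tested. With the spike batch term 2 of the 13 macrophage genes fell. Lyz2, lysozyme, gave 116, 215 and 206 against 1416, 2130.2 and 1627 (-2.99 ± 0.33, adjusted p = 2.88e-05), and Cd14, the mannose receptor Mrc1, Ctss and Csf1r differed by -2.25 ± 0.37, -3.43 ± 0.68, -2.18 ± 0.45 and -1.61 ± 0.34. With arrays below the pseudocount, the size depends on it, and with the higher and the lower alternative it ran for Ahsp from -4.21 to -5.80 (2 of 6 arrays) and Mrc1 from -2.47 to -4.17 (3 of 6 arrays). Calls of named genes that were not kept under all alternatives were those of Tfrc (difference 0.39 to 0.87, adjusted p 0.00255 to 0.0959, lost under 6 of 24), Cd14 (difference -2.49 to -1.73, adjusted p 0.000111 to 0.0687, lost under 1 of 23), Mrc1 (difference -4.17 to -2.47, adjusted p 0.000792 to 0.0678, lost under 1 of 23), Ctss (difference -2.40 to -1.66, adjusted p 0.00129 to 0.11, lost under 2 of 23) and Csf1r (difference -1.91 to -1.10, adjusted p 0.000733 to 0.163, lost under 2 of 23).

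Markers of other neighbours were mixed or faint. Of 11 genes of neurons and neural crest, 4 fell and 2 rose, beside 16.6% and 13.6% of all genes. Hand2, a factor of sympathetic neurons that mesoderm also uses, gave 91, 355 and 129.6 against 1491, 2480.3 and 2358 (-3.31 ± 0.36, adjusted p = 2.57e-05), and Stmn2, Nefm and Ngfr differed by -2.80 ± 0.42, -2.40 ± 0.54 and -1.68 ± 0.48. The 2 that rose were Gap43, a growth cone protein, with 10031, 7675 and 7488 against 573, 671 and 441 (3.80 ± 0.22, adjusted p = 1.11e-07), and the RNA-binding protein Elavl4 (1.12 ± 0.34). The summed signal of this list was 12824 to 14883 on UB and 9173 to 11395 on WD+IM. With the spike batch term 2 neural genes fell, and 1 rose without UB replicate 1 or 3 or without WD+IM replicate 2 or 3. Of 3 genes of skeletal muscle, Des and Myog fell, Myog at -1.56 ± 0.50, and Tnni1 was not called (-0.46 ± 0.39), at summed signals of 1444 to 1935 on UB and 6380.4 to 7641 on WD+IM. Of 5 germ cell genes, Sall4 rose and Ifitm3 fell (528, 744 and 733 against 9535, 12412 and 12212, -4.01 ± 0.18, adjusted p = 1.61e-08), while Kit, Prdm1 and Nanos3 differed by 1.21 ± 0.57, -0.84 ± 0.40 and -0.33 ± 0.35 without a call. Ifitm3 is also widely expressed outside germ cells, and the summed signal was 5549.7 to 7525 on UB and 12272 to 14345 on WD+IM. Of 8 genes of the gonadal ridge and steroid-making cells, 5 fell and 1 rose, with summed signals of 27057 to 32428 on UB and 39781 to 40223 on WD+IM. The Notch-like protein Dlk1 gave 172, 210.2 and 153 against 5933, 8248 and 6019 (-4.91 ± 0.20, adjusted p = 6.06e-09), and Amhr2, Tcf21, Nr0b1 and Inhba differed by -3.37 ± 0.39, -2.36 ± 0.29, -1.47 ± 0.32 and -1.12 ± 0.33. The 1 that rose was Emx2, which the duct also expresses. Of this list, 3 fell with the spike batch term. Here too, genes faint in UB could pass the filter through the WD+IM arrays alone, which favours a fall. With the stricter filter 3 neural, 1 skeletal muscle, 2 germ cell and 5 gonadal genes were tested. The size also depended on the pseudocount where arrays lay below it, running with the higher and the lower alternative for Nefm from -1.84 to -2.75 (1 of 6 arrays). Averaging all probe sets of a gene of which another tested one was not called gave -1.04 for Inhba (adjusted p = 0.0615). Not every alternative kept the calls of the named genes Nefm (difference -2.75 to -1.84, adjusted p 0.00274 to 0.158, lost under 2 of 23), Ngfr (difference -1.82 to -1.15, adjusted p 0.0033 to 0.248, lost under 6 of 23), Elavl4 (difference 0.84 to 1.66, adjusted p 0.00105 to 0.124, lost under 4 of 24), Myog (difference -1.69 to -0.997, adjusted p 0.00699 to 0.218, lost under 12 of 23), Nr0b1 (difference -1.63 to -0.95, adjusted p 0.000916 to 0.136, lost under 2 of 23) and Inhba (difference -1.31 to -0.62, adjusted p 0.00838 to 0.277, lost under 10 of 23). A call was reached under some alternative for Kit (difference 0.72 to 2.19, adjusted p 0.023 to 0.399, reached under 2 of 23).

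Genes of the nephron lineage were lower or not called. Of 9 nephron progenitor genes, 4 fell and 0 rose (limma; 0 at an unadjusted p under 0.05), and a further 6 were below the filter. Itga8, the integrin chain of kidney mesenchyme that binds nephronectin from the bud, gave 315, 360.2 and 266 against 12046, 14161 and 12026 (-5.16 ± 0.18, adjusted p = 3.52e-09), and Wnt4, which drives nephron formation, gave 324, 227 and 339.6 against 8163, 12498 and 12394 (-5.002 ± 0.21, adjusted p = 9.05e-09). Rspo3 and Hoxa11 fell as well (-2.38 ± 0.34 and -1.002 ± 0.30), and Tmem100 was not called (-0.76 ± 0.28, adjusted p = 0.0656). Gdnf, the ligand of RET, was below the filter, with signals of 186, 37 and 129 on the UB arrays and 68.1, 40.6 and 63.6 on the WD+IM arrays, so no difference could be read at this signal, and Six2, Foxd1 and Osr1 had no probe set with 1 symbol. The summed signal of the list was 22884 to 28560.1 on UB, 24134 to 24850 on WD and 48281 to 69121 on WD+IM. Of 9 genes of tubule and podocyte, 6 fell and 0 rose (limma; 1 at an unadjusted p under 0.05), with a median of -2.31 and a summed signal of 8713 to 11690.1 on UB and 45842 to 56201 on WD+IM. The WD arrays, at 42777 to 45002, lay just below WD+IM. The list's median of WD minus WD+IM, which was not tested, was 0.26. A further 13 of the 22 members with a probe set were below the filter, so most of this list was too faint to test. In both nephron lists, genes faint in UB could pass the filter through the WD+IM arrays alone, which favours a fall. The stricter filter tested 5 progenitor genes and 6 of tubule and podocyte. Dab2, an endocytic adaptor, gave 1149.5, 1251 and 1002 against 29948, 21223 and 19579 (-4.30 ± 0.17, adjusted p = 5.68e-09), and Podxl, Synpo, Hey1 and Cdh6 differed by -2.31 ± 0.17, -2.96 ± 0.21, -3.58 ± 0.33 and -2.98 ± 0.38. Podxl lines coelomic and vascular cells too. Where another tested probe set of a gene was not called, the mean over its probe sets gave -1.82 for Synpo (adjusted p = 3.25e-05). Of the genes named here, at least 1 alternative ended the call of Hoxa11 (difference -1.20 to -0.64, adjusted p 0.0128 to 0.212, lost under 8 of 23). A call was reached under some alternative for Tmem100 (difference -0.90 to -0.27, adjusted p 0.0265 to 0.566, reached under 2 of 23).

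The tested HoxA genes fell and the tested HoxB genes rose. Of 39 Hox genes in the list, 17 had no probe set with 1 symbol and 2 were below the filter. Of the 20 tested, 9 rose and 9 fell. All 5 HoxA genes tested fell, Hoxa5, Hoxa7, Hoxa9, Hoxa10 and Hoxa11, with differences of -4.25 ± 0.18, -3.39 ± 0.43, -4.47 ± 0.23, -2.81 ± 0.22 and -1.002 ± 0.30. All 5 HoxB genes tested rose, Hoxb2, Hoxb3, Hoxb4, Hoxb6 and Hoxb7, with 1.62 ± 0.24, 1.11 ± 0.17, 1.82 ± 0.20, 2.05 ± 0.16 and 1.69 ± 0.32. Within HoxC, Hoxc5 rose (0.58 ± 0.18) and Hoxc8 and Hoxc9 fell (-4.30 ± 0.45 and -5.39 ± 0.32), and within HoxD, Hoxd1, Hoxd3 and Hoxd8 rose (2.04 ± 0.26, 0.64 ± 0.18 and 1.29 ± 0.13) and Hoxd9 and Hoxd10 fell (-0.40 ± 0.14 and -1.71 ± 0.21). Hoxc4 and Hoxd4 were not called, and the call of Hoxa11 was one of those lost under some alternatives. The signals of Hoxa5 were 777, 711 and 801 against 20104, 12695 and 14066, those of Hoxc9 were 64.3, 136 and 185 against 7221, 5868 and 7835 and those of Hoxb6 were 25246, 29895 and 24827 against 6527, 6795 and 5817. WD stood between the tissues for Hoxa5 and Hoxc9, at 9921, 8816 and 8143 and 3457, 2259 and 1631, and near UB for Hoxb6, at 17534, 26385 and 18596. Members of the list outside the naming rule were named after their values were seen, and the split between HoxA and HoxB was read from these data without a test. In HoxC and HoxD the members that rose had lower paralogue numbers than those that fell, and the tested HoxA members, numbers 5 to 11, and HoxB members, 2 to 7, overlap only in part. Named genes whose calls some alternatives ended were Hoxb7 (difference 1.39 to 2.05, adjusted p 9.57e-05 to 0.0625, lost under 1 of 24), Hoxc5 (difference 0.47 to 0.95, adjusted p 0.00667 to 0.186, lost under 8 of 24), Hoxd3 (difference 0.55 to 1.01, adjusted p 0.00393 to 0.165, lost under 6 of 24) and Hoxd9 (difference -0.44 to -0.03, adjusted p 0.0333 to 0.916, lost under 14 of 24).

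**Figure D3:**
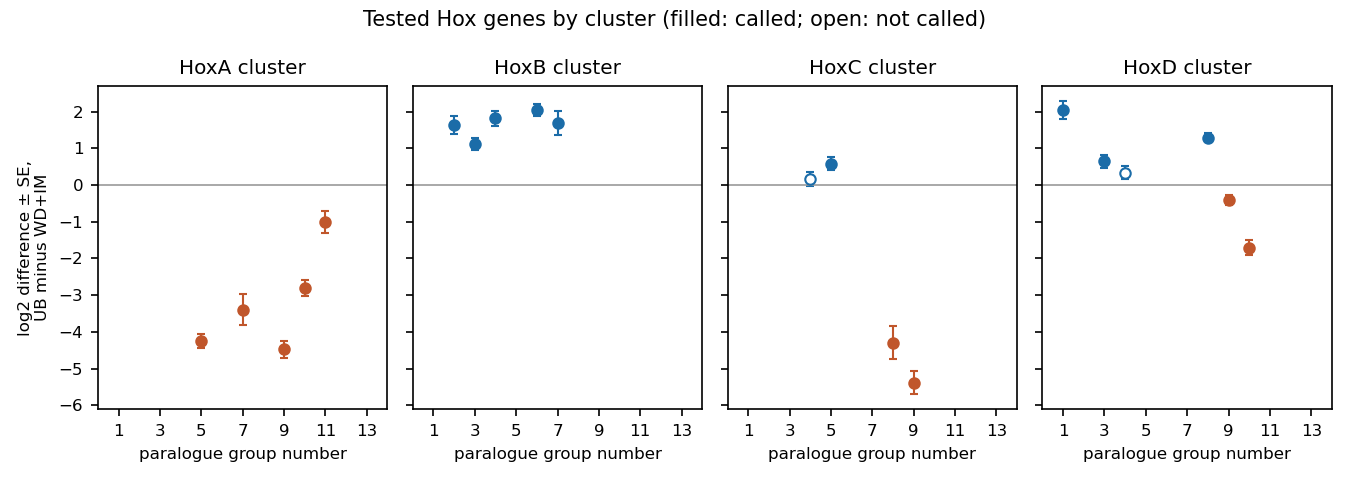
Log2 difference, UB minus WD+IM, with its standard error for the 20 tested Hox genes, placed by paralogue group number in 4 panels for the HoxA, HoxB, HoxC and HoxD clusters, filled where called. The tested HoxA genes lie below 0 and the tested HoxB genes above 0, and HoxC and HoxD hold both signs, with Hoxc9 lowest at -5.39.

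Ligands and receptors of the FGF, GDNF, HGF and EGF families went both ways, 7 of 23 rising and 5 falling. Of all genes, 13.6% rose and 16.6% fell. Nrtn, a GDNF family ligand, gave 16389, 13045 and 13302 on the UB arrays and 955, 1039 and 1908 on the WD+IM arrays (3.47 ± 0.24, adjusted p = 4.97e-07). Its preferred co-receptor Gfra2 gave 446, 352 and 324 against 2717, 3014 and 2560.2 (-2.75 ± 0.20, adjusted p = 8.51e-07) and the artemin co-receptor Gfra3 differed by -3.76 ± 0.33, so both moved against Gfra1. Among FGF receptors, Fgfr1 and Fgfr3 fell (-1.01 ± 0.13 and -0.94 ± 0.24) while Fgfr4 rose (2242, 3063 and 2400.0 against 288, 90.1 and 546, 3.11 ± 0.43). Egfr, the EGF receptor, fell (255, 207 and 245 against 1208, 1057 and 1996, -2.33 ± 0.31) while its ligand Tgfa rose (1.51 ± 0.22), as did Met, the HGF receptor (2.20 ± 0.57). Fgfr4, Tgfa and Met were named after their values were seen. Among the genes named here, calls were lost over the alternatives for Fgfr3 (difference -1.07 to -0.58, adjusted p 0.00474 to 0.194, lost under 4 of 24) and Met (difference 1.53 to 3.54, adjusted p 0.00085 to 0.0648, lost under 1 of 23).

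Of 30 Wnt pathway genes, 4 rose and 13 fell. Over all genes 13.6% rose and 16.6% fell, so the rises were near the share of all genes. Wnt6 rose beside Wnt11, at 6398, 6575 and 6019.8 against 2399, 4549.8 and 2798 (1.01 ± 0.21), and the receptor Fzd6 and the nuclear effector Tcf7 rose by 1.22 ± 0.17 and 1.14 ± 0.14. The secreted inhibitors Sfrp1 and Wif1 fell, Sfrp1 with 2444, 2881 and 2013 against 31285, 45632 and 45197 (-4.03 ± 0.17, adjusted p = 9.76e-09) and Wif1 with -3.37 ± 0.30. Lef1, of the same factor family as Tcf7, fell, at -1.27 ± 0.15, so these relatives differed in opposite directions. Of 33 genes of BMP, TGF-beta and activin signalling, 4 rose and 15 fell, the rises again near the share of all genes. Bmp7 gave 7434, 7259 and 12465 against 2827, 2829 and 2445 (1.68 ± 0.21, adjusted p = 8.92e-05) and Bmp2 gave 367, 424 and 453 against 5249, 7361 and 6382 (-3.78 ± 0.22, adjusted p = 1.2e-07), each without overlap and in opposite directions. The antagonist Sostdc1 rose (21898, 22075 and 23211 against 4338, 7145 and 6511, 1.92 ± 0.16), as did Id4 (1.84 ± 0.21) and Gdf11 (0.80 ± 0.17), while the antagonist Nbl1 fell (-3.25 ± 0.25). Tgfb1 was below the pseudocount on all 3 UB arrays, at 10.8, 11.3 and 17.7 against 1622, 1827 and 1111 (-4.70 ± 0.43). The spike batch term left 9 members of this list lower and the fit within the spike batch 8, and of the Wnt list 10 within the spike batch. Median centring gave 7 rises in this list and 7 in the Wnt list. With arrays below the pseudocount, the size depends on it, and with the higher and the lower alternative it ran for Tgfb1 from -3.52 to -5.69 (3 of 6 arrays). Some alternatives ended the call of 1 gene named here, Gdf11 (difference 0.57 to 1.16, adjusted p 0.000685 to 0.153, lost under 2 of 24).

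Retinoic acid enzymes were divided between the tissues. Of 14 pathway genes, 2 rose and 6 fell, the rises near the 13.6% of all genes that rose. Aldh1a3 gave 87926, 87682 and 72747 against 11364, 19441 and 16349 (2.42 ± 0.18, adjusted p = 9.59e-07) and Aldh1a2 gave 5571, 5965 and 3159 against 76744, 90606 and 78172 (-4.10 ± 0.20, adjusted p = 3.05e-08), both being retinoic acid synthases. With Aldh1a1, then, a pair of the synthases was higher in UB and Aldh1a2 was higher in WD+IM. The binding protein Crabp1 gave 4086, 3328 and 3247 against 56441, 71269 and 57170.0 (-4.10 ± 0.21, adjusted p = 4.94e-08), and the reductase Dhrs3 differed by -1.72 ± 0.18. Of 15 genes of insulin-like growth factors and their binding proteins, 9 fell and 1 rose, against 5 rising with median centring. Igf1 gave 108, 249.6 and 73.5 against 6756, 6631 and 4448 (-5.07 ± 0.37, adjusted p = 7.92e-07) and Igf2 gave 22176, 21509 and 18816 against 106042, 132616 and 86184 (-2.36 ± 0.16, adjusted p = 5.71e-07), with Igf2 bright even on the UB arrays. Igfbp5 and Igfbp7 differed by -2.32 ± 0.17 and -1.57 ± 0.15, and Igfbp2 rose, with 69476, 61613 and 66982 against 27039, 47766 and 40034 (0.82 ± 0.18, adjusted p = 0.00563). Of 14 imprinted genes, 9 fell and 0 rose (limma; 0 at an unadjusted p under 0.05). The non-coding RNA Meg3 gave 213, 298 and 393 against 14253, 16495 and 10446 (-5.32 ± 0.24, adjusted p = 1.47e-08), and H19, a non-coding RNA beside Igf2, and the cell cycle inhibitor Cdkn1c differed by -1.91 ± 0.14 and -1.68 ± 0.12. On the WD arrays Dlk1, Igf2 and Meg3 stood at 4753, 4392 and 5239, 104383, 115823 and 141039 and 20160.0, 15858 and 12527, and Cdkn1c at 22010.5, 23961 and 20063. The mean over all probe sets of a gene, where another tested one was not called, was -1.88 for Igfbp5 (adjusted p = 0.00218). The call of a named gene that was not kept under all alternatives was that of Igfbp2 (difference 0.59 to 1.19, adjusted p 0.00153 to 0.125, lost under 1 of 24).

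Guidance cues and their receptors went both ways as well, with 6 of 31 genes higher and 13 lower, beside 13.6% and 16.6% of all genes. Slit2 gave 13016, 14413 and 14378 against 5603, 4023 and 4816 (1.54 ± 0.17, adjusted p = 3.12e-05) and its receptor Robo2 gave 7364, 7938 and 5953 against 2061, 2129 and 2225 (1.70 ± 0.22, adjusted p = 8.68e-05), so ligand and receptor both rose. Slit1 rose too (1.33 ± 0.38), while Slit3 fell, at 262, 244 and 383 against 2263, 1619 and 1496 (-2.42 ± 0.30, adjusted p = 7.32e-05). The semaphorins Sema3d and Sema3c and the receptor Nrp1 rose by 1.79 ± 0.21, 1.23 ± 0.16 and 0.95 ± 0.17, and the semaphorin receptor Plxnd1 and the ephrin Efnb1 differed by -3.60 ± 0.29 and -2.07 ± 0.23. Of 8 chemokines and receptors, 2 rose and 3 fell, against 1 falling with the spike batch term. Cxcr4 gave 21170.3, 19530.4 and 15342 against 2079, 2137 and 1639 (3.23 ± 0.24, adjusted p = 1.11e-06) and its ligand Cxcl12 gave 4254, 4195 and 3596 against 30512, 24544 and 24218 (-2.70 ± 0.20, adjusted p = 9.76e-07), so receptor and ligand lay on opposite sides. On WD, Cxcl12 stood at 2365, 1327 and 1516, below every UB array. Cxcl13 and Ccl3, chemokines of immune cells, differed by -3.56 ± 0.70 and -1.80 ± 0.55, and Cxcl13 had 2 UB arrays below the pseudocount. The size also depended on the pseudocount where arrays lay below it, running with the higher and the lower alternative for Cxcl13 from -2.67 to -4.22 (2 of 6 arrays). Averaging all probe sets of a gene of which another tested one was not called gave 0.97 for Slit2 (adjusted p = 0.000327), 1.43 for Robo2 (adjusted p = 7.91e-05), 0.64 for Nrp1 (adjusted p = 0.000918) and -1.87 for Efnb1 (adjusted p = 0.00693). Not every alternative kept the calls of the named genes Slit1 (difference 0.95 to 2.08, adjusted p 0.00232 to 0.0846, lost under 4 of 23), Nrp1 (difference 0.64 to 1.32, adjusted p 0.000154 to 0.0813, lost under 1 of 24), Cxcl13 (difference -4.22 to -2.67, adjusted p 0.000139 to 0.0576, lost under 1 of 23) and Ccl3 (difference -2.13 to -1.29, adjusted p 0.0085 to 0.32, lost under 8 of 23).

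**Figure D4:**
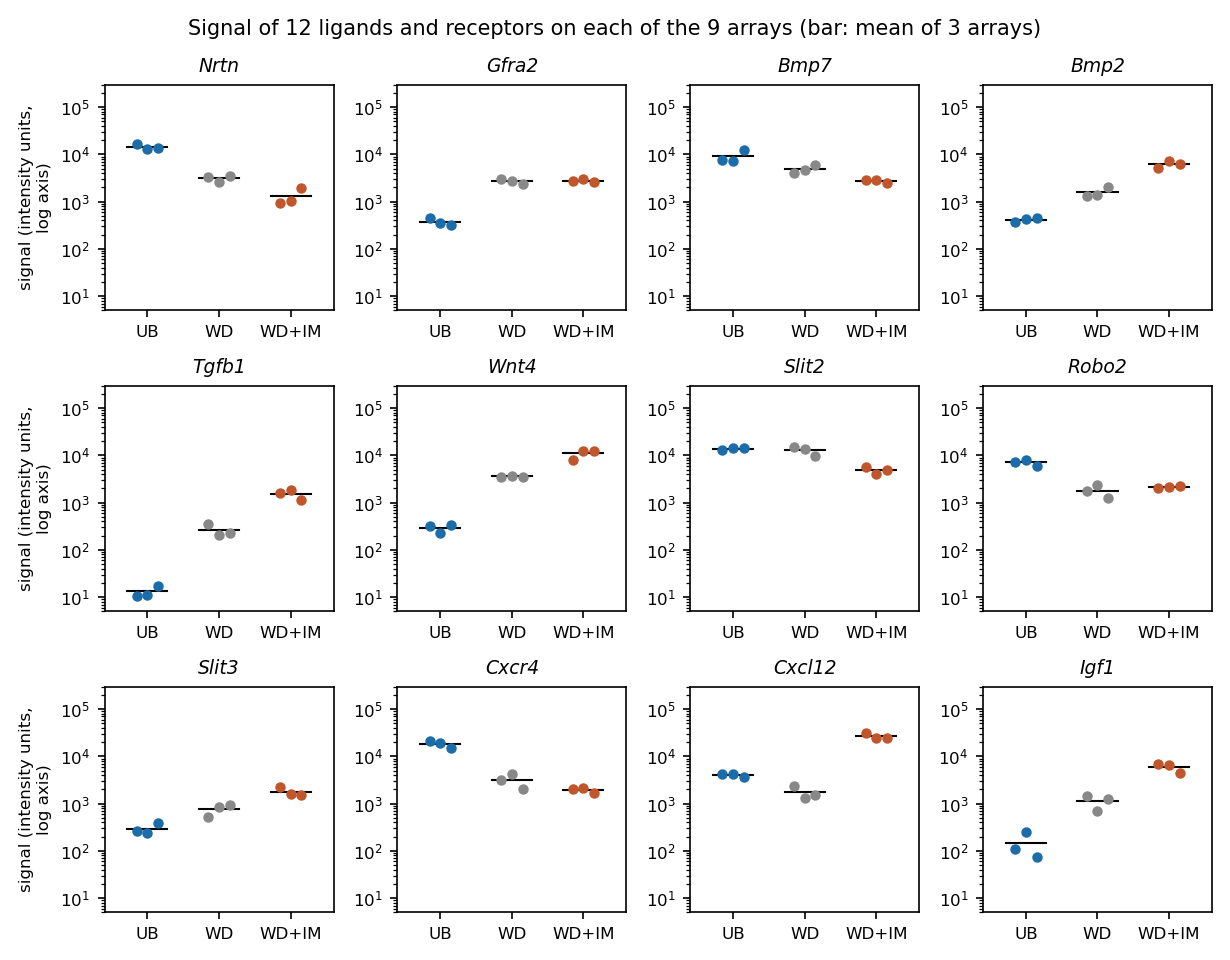
Signal of 12 ligands and receptors in intensity units on a log axis, 1 point for each of the 9 arrays and a bar at the mean of the 3 arrays of UB, WD and WD+IM. Nrtn, Bmp7, Slit2, Robo2 and Cxcr4 are higher on the UB arrays than on the WD+IM arrays, and Gfra2, Bmp2, Tgfb1, Wnt4, Slit3, Cxcl12 and Igf1 are lower.

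Basement membrane genes differed in both directions. Of 25 basement membrane and integrin genes, 4 rose and 10 fell, the rises near the 13.6% of all genes that rose. Lama1, the laminin chain of embryonic basement membranes, gave 11350.1, 14635 and 10490.4 against 1702, 2115 and 1859.6 (2.65 ± 0.20, adjusted p = 1.21e-06), and Itga6, a laminin receptor chain, gave 16768, 14782 and 14143 against 4825, 3690.2 and 4167 (1.84 ± 0.14, adjusted p = 1.4e-06). Frem2 and Lamc1 rose as well (2.62 ± 0.34 and 0.51 ± 0.15). Nid1 and Nid2, the nidogens that link laminin to collagen IV, fell with 3457, 3506 and 3331 against 22649, 20939 and 17092 (-2.53 ± 0.15) and 1435, 1653 and 1376 against 14349, 13826 and 10722 (-3.08 ± 0.15). Of 25 matrix proteases and inhibitors, 13 fell and 0 rose (limma; 0 at an unadjusted p under 0.05). Tissue plasminogen activator, Plat, gave 1028, 839 and 684 against 11764, 9969 and 14415 (-3.76 ± 0.21, adjusted p = 7.93e-08), and Mmp2, Timp3, Reck and Adam19 differed by -3.11 ± 0.18, -3.64 ± 0.23, -2.40 ± 0.18 and -3.21 ± 0.26, so these proteases and inhibitors moved the same way. With median centring 6 basement membrane genes fell. Where another tested probe set of a gene was not called, the mean over its probe sets gave 1.51 for Itga6 (adjusted p = 0.004), 0.55 for Lamc1 (adjusted p = 0.0386) and -1.49 for Nid1 (adjusted p = 7.61e-05). Of the genes named here, at least 1 alternative ended the call of Lamc1 (difference 0.36 to 0.87, adjusted p 0.00606 to 0.151, lost under 7 of 24).

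Cell cycle genes were modestly higher in UB. Of 37, 17 rose and 0 fell (limma; 0 at an unadjusted p under 0.05), with a median of 0.39. Ccnd1, cyclin D1, gave 28328, 31481 and 21373 on the UB arrays and 10036, 9096 and 15269 on the WD+IM arrays (1.25 ± 0.20, adjusted p = 0.000469), the checkpoint gene Mad2l1 rose by 1.004 ± 0.18, and the helicase subunits Mcm3 and Mcm6 and the topoisomerase Top2a by 0.55 ± 0.11, 0.60 ± 0.12 and 0.60 ± 0.12. The count moved with the processing. It was 30 with median centring, 3 with the spike batch term, 6 within the spike batch and 10 without either UB replicate 1 or UB replicate 2. Among 31 genes of glycolysis and the hypoxia response, 17 rose and 5 fell, with a median of 0.65. Over all genes 16.6% fell, so the falls were near that share. Slc16a3, the lactate exporter, gave 9916, 9527 and 8309.7 against 1124, 1515 and 1751 (2.64 ± 0.19, adjusted p = 8.3e-07), and the glucose transporter Slc2a1 gave 13452, 14438 and 15649 against 6153, 6318 and 6497 (1.19 ± 0.13, adjusted p = 3.38e-05). Ndrg1, Higd1a and Pfkfb3 rose by 1.46 ± 0.20, 0.82 ± 0.12 and 1.07 ± 0.16. The 5 that fell were Eno2 (-1.94 ± 0.42), Vegfa (-0.58 ± 0.15), the collagen hydroxylases P4ha1 (-0.53 ± 0.17) and P4ha2 (-1.10 ± 0.20), and Ddit4 (-1.06 ± 0.18). With the spike batch term 10 rose and 2 fell, and 3 fell without UB replicate 3 or without WD+IM replicate 1. The mean over all probe sets of a gene, where another tested one was not called, was 0.93 for Mad2l1 (adjusted p = 0.000423), 0.44 for Top2a (adjusted p = 0.067), 0.48 for Pfkfb3 (adjusted p = 0.175) and -0.42 for Vegfa (adjusted p = 0.323). Named genes whose calls some alternatives ended were Ccnd1 (difference 0.81 to 1.62, adjusted p 2.05e-07 to 0.0584, lost under 1 of 24), Mcm3 (difference 0.45 to 0.91, adjusted p 0.00103 to 0.0557, lost under 1 of 24), Top2a (difference 0.44 to 0.96, adjusted p 0.00105 to 0.109, lost under 3 of 24), Pfkfb3 (difference 0.48 to 1.43, adjusted p 5.67e-05 to 0.175, lost under 1 of 24), Vegfa (difference -0.65 to -0.22, adjusted p 0.00664 to 0.453, lost under 7 of 24), P4ha1 (difference -0.65 to -0.17, adjusted p 0.0241 to 0.618, lost under 10 of 24) and P4ha2 (difference -1.29 to -0.72, adjusted p 0.000266 to 0.0912, lost under 2 of 24).

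Immediate early and dissociation stress genes moved in both directions. Of 33, 12 rose and 6 fell, the falls near the 16.6% of all genes that fell. Egr2, an early growth response factor, gave 2465, 2599 and 5888 against 299, 425 and 299 (3.15 ± 0.39, adjusted p = 6.41e-05), with UB replicate 3 the highest, and Egr1 gave 80494, 79515 and 73525 against 31855, 29949 and 40282 (1.20 ± 0.15, adjusted p = 9.15e-05). Egr4, below the pseudocount on all WD+IM arrays, rose by 3.51 ± 0.65, and ran from 2.58 to 4.20 with the higher and the lower alternative pseudocount. The secreted CCN proteins parted, Ccn1 with 3845, 4721 and 4673 against 1097, 669.9 and 1267 (2.12 ± 0.25, adjusted p = 4.21e-05) and Ccn2 with 1139, 1713 and 1156 against 12332, 7999.7 and 8180.4 (-2.78 ± 0.21, adjusted p = 1.21e-06). The others that fell were Dusp2 (-1.21 ± 0.30), Gadd45b (-0.89 ± 0.22), the heat shock genes Hspa1a (-0.96 ± 0.30) and Hspb1 (-2.11 ± 0.40), and Hmox1 (-1.23 ± 0.40). Only UBs were digested with trypsin, and for these genes tissue and digestion cannot be told apart. With the spike batch term 5 rose and 1 fell. The number that fell was 3 without UB replicate 1 or without WD+IM replicate 2 and 10 with array weights. Of 19 cholesterol synthesis genes, 6 rose and 0 fell (limma; 1 at an unadjusted p under 0.05), led by the methyl sterol oxidase Msmo1 with 14734, 14274 and 15251 against 7396, 6853 and 8785 (0.95 ± 0.14, adjusted p = 0.000306), and Idi1, Dhcr7, Tm7sf2 and Insig1 rose by 0.80 ± 0.15, 0.80 ± 0.18, 0.80 ± 0.21 and 0.65 ± 0.18. With median centring 12 rose, 2 with the spike batch term and 3 without UB replicate 3. Of 33 respiratory chain genes, 0 fell (limma; 1 at an unadjusted p under 0.05) and only Ndufs4 rose (6246, 4961 and 4823 against 2485, 2601 and 3941, 0.84 ± 0.21), and Sdhd, Ndufa8, Atp5po and Cox4i1 differed by 0.46 ± 0.17, -0.35 ± 0.14, -0.35 ± 0.17 and -0.23 ± 0.13. Among the genes named here, calls were lost over the alternatives for Dusp2 (difference -1.48 to -0.66, adjusted p 0.00173 to 0.334, lost under 4 of 23), Gadd45b (difference -1.08 to -0.53, adjusted p 0.0031 to 0.14, lost under 5 of 24), Hspa1a (difference -1.15 to -0.59, adjusted p 0.0176 to 0.481, lost under 9 of 24), Hspb1 (difference -2.47 to -1.60, adjusted p 0.00066 to 0.155, lost under 2 of 23), Hmox1 (difference -1.34 to -0.69, adjusted p 0.0169 to 0.247, lost under 13 of 23), Idi1 (difference 0.62 to 1.16, adjusted p 0.000498 to 0.0862, lost under 1 of 24), Dhcr7 (difference 0.70 to 1.16, adjusted p 0.000894 to 0.0573, lost under 1 of 24), Tm7sf2 (difference 0.74 to 1.16, adjusted p 0.00211 to 0.0988, lost under 2 of 24), Insig1 (difference 0.49 to 1.02, adjusted p 0.00153 to 0.074, lost under 2 of 24) and Ndufs4 (difference 0.42 to 1.20, adjusted p 0.00194 to 0.383, lost under 3 of 24). A call was reached under some alternative for Sdhd (difference 0.05 to 0.83, adjusted p 0.00395 to 0.913, reached under 3 of 24), Ndufa8 (difference -0.46 to 0.02, adjusted p 0.0308 to 0.963, reached under 3 of 24) and Atp5po (difference -0.49 to 0.02, adjusted p 0.044 to 0.959, reached under 2 of 24).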

How the data were processed

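RNA of 9 pools of rat tissue, 3 each of UB, WD and WD+IM, was measured on 1-colour Affymetrix arrays from biotin-labelled cRNA. The deposited values are intensities on a linear scale, 1 per probe set, made by the authors with GCOS per the submitters' processing notes, and no version or summary algorithm is named in those notes. The values are already scaled, since all columns share their mean once 2% is left out at each end, and no further normalization was applied. Of 31099 probe sets, 57 array controls were left out, and of the rest 20826 carry 1 gene symbol, 436 several and 9780 none in the platform annotation. Symbols were updated by Entrez ID through RefSeq's GRCr8 table, in which 20758 matched.

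A pseudocount of 46, the 10th percentile of all values, was added before log2. Probe sets above their array's 40th percentile on at least 3 of the 9 arrays were tested with limma 3.58.1 in R 4.3.3 (group means over 9 arrays, the contrast UB minus WD+IM, empirical Bayes with a trend, 6 residual degrees of freedom), with Benjamini-Hochberg adjustment over all 20330. The script was tested on simulated data. A gene is its probe set with the highest mean. Genes were named by rule: the 12 largest rises and falls without overlapping arrays, 20 genes of the duct, bud and mesoderm, and, per list, the 5 members lowest in p at most and every called member against the list's direction. The members and lists were chosen with earlier results of these data known, and the promoter motif was chosen for its known role with the epithelial list in view. Alternatives changed the normalization, pseudocount, filter, variance model, array weights, arrays in the fit, spike batch, beta-actin covariate, replicate block, probe set of a gene and the arrays left out.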

Additional observations from a re-analysis of the deposited data

How the results depend on the processing

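All 5176 called probe sets kept their sign under every alternative fitted, except that 5173 did so with median centring and that the stricter filter tested 3957 of them, all with the same sign. Where only the filter, the variance model, the WD arrays or the replicate block changed, the difference itself stayed the same. The sign could not change in those alternatives, so they say nothing about it. The remaining alternatives reused arrays that had made the calls, so the signs kept there are not a separate check. The counts moved more. The 2228 probe sets higher in UB became 4610 with median centring, 846 with the spike batch term, 1328 within the spike batch and 965 where a difference of at least 2-fold was also asked. The 2948 lower in UB became 1792 with median centring, 1568 with the spike batch term and 1663 within the spike batch. Leaving out 1 array at a time gave 1366 (without UB replicate 1) to 2363 (without WD replicate 2) higher and 2271 (without UB replicate 1) to 3018 (without WD+IM replicate 3) lower. The other alternatives kept both counts within 1.5 times. The cause of these shifts was not tested. UB and WD+IM share replicate numbers. Same-numbered arrays deviated from their group means with r of -0.35, -0.08 and -0.34, and arrays of unlike number with -0.04 to 0.30. Deviations within a group sum to 0, so these values cannot show whether same-numbered pools were prepared together. The replicate block gave 1949 higher and 2657 lower, and 4542 of its 4606 calls were among the 5176.

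Of 197 named genes called, 151 were called under every alternative that tested them. The spike batch term ended the call of 37, the fit within the spike batch of 29, quantile normalization of 12 and the replicate block of 4. The median of the germ cell list was -0.33 and became 0.21 with quantile normalization and 0.04 with median centring, that of the chemokines changed from -0.28 to 0.08 with median centring, and quantile normalization made 3 respiratory chain genes fall. With the spike batch term 2 neuronal genes fell. Of 54 named and called genes with a further tested probe set, 17 had one that was not called and 0 had one called the opposite way. Faint genes have only compressed differences, since signals below the pseudocount carry little of the size.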

Other observations

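The 5254 tested probe sets without a single gene symbol held 437 (8.32%) higher and 732 (13.9%) lower in UB by limma, and some of their differences were as large as those of the named genes. Probe set 1376799_a_at gave a signal of 17909.7 ± 828 (SD, n = 3) in UB and 671 ± 129 in WD+IM, a difference of 4.66 ± 0.17 (limma adjusted p = 4.44e-09). Probe set 1392166_at gave 160.2 ± 38.7 in UB and 17416 ± 7422 in WD+IM, a difference of -6.34 ± 0.33 (limma adjusted p = 5.2e-08). No gene is named for either here.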
